A study of Mus musculus with 6 samples.

Results

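The genes described here are 10 genes of DNA replication: Mcm2, Mcm3, Mcm4, Mcm5, Mcm6 and Mcm7, which encode the 6 subunits of the replicative helicase, and Cdc6, Cdc45, Pcna and Rrm2. They were taken by name, through the Ensembl gene IDs of the deposited tables, and all 10 were found among 35275 genes. Each of the 10 had reads in every library, and all 10 entered the test among the 24511 genes with a read. The RNA was extracted with Trizol and made into Illumina TruSeq RNA libraries. Its source was cells labelled as neurons of the spinal cord, taken on postnatal day 3 in ICR mice (an outbred stock) and kept in complete DMEM medium. By their labels, TG cells were mechanically injured and incubated with hydrogen at 75%, NG cells were mechanically injured without hydrogen, and IG cells were the untreated control. There were 2 libraries in each group. Nothing in the labels ties a group's libraries to different cultures or animals. The p-values therefore rest on a spread between libraries that may be technical.

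Replication origins are licensed in G1 phase, when the origin recognition complex, Cdc6 and Cdt1 load the MCM2-7 ring onto DNA. In S phase the ring is turned into the working helicase by Cdc45 and the GINS complex, PCNA clamps the polymerases to the template, and ribonucleotide reductase, whose small subunit is RRM2, supplies deoxynucleotides. Transcription of these genes is driven by E2F factors and is a mark of proliferating cells. Neurons have left the cell cycle, so in nervous tissue these transcripts are known mainly from progenitors, glial precursors, and blood, vessel and connective tissue cells.

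The group tables hold mean normalised reads of the 2 libraries. Each group stands in 2 tables with different scaling, which allowed the whole reads of each library to be recovered, and the deeper library of a group is called A and the shallower B. The libraries held 23911141 (A) and 16790032 (B) reads in TG, 20069421 and 15920819 in NG, and 23516544 and 15749447 in IG. Values below are normalised reads, that is, recovered reads divided by the library's size factor. The labelled cell type was set against marker lists. The 9 neuron markers were all detected and summed to 88270 to 90883 normalised reads in TG, 41853 to 43950 in NG and 74251 to 75947 in IG. The 7 oligodendrocyte markers, all detected, summed to 2326794 to 2337172 in TG, 1173301 to 1215860 in NG and 1835553 to 1895876 in IG, and markers of red cells, fibroblasts and skeletal muscle were detected as well. By these markers the libraries held RNA of more cell types than the label names. In such bulk RNA, more cells of a type and more RNA per cell cannot be told apart.

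All 10 genes were in the same order: lowest in TG, higher in IG and highest in NG, with no overlap between the libraries of any pair of groups. How many of all tested genes were in this order without overlap was not counted. Over all tested genes, 45.3% were called different in TG over NG, 40.1% in NG over IG and 11.3% in TG over IG, by the rule given with each comparison. Summed over the 10 genes there were 2581 and 2656 normalised reads in the TG libraries, 8559 and 8509 in the NG libraries, and 3800 and 3835 in the IG libraries. As CPM, on the total of all recovered reads, this was 134 and 139 in TG, 439 and 444 in NG, and 209 and 210 in IG.

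**Figure D1:**
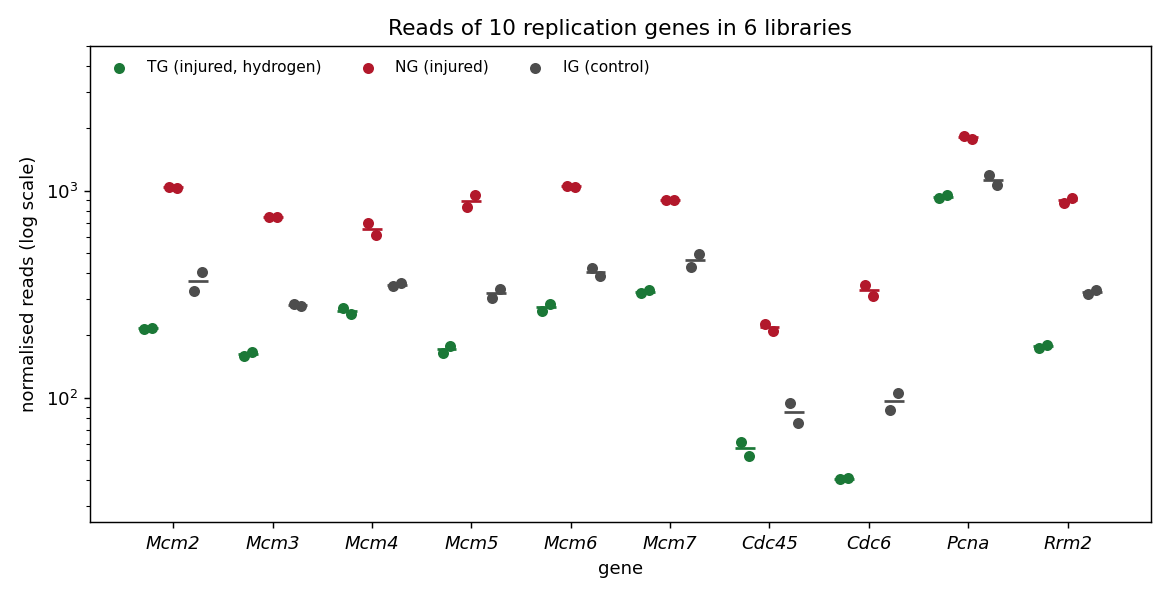
Normalised reads (log scale, vertical axis) of the 10 replication genes (horizontal axis) in the 2 TG, 2 NG and 2 IG libraries; points are libraries and short lines group means. For every gene both TG points lie below both IG points and both NG points lie above them, from Cdc6 (40.2 and 41.1 in TG, 350 and 311 in NG) to Pcna (919 and 954 in TG, 1843 and 1782 in NG).

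The 10 genes lie on 8 chromosomes. In mm10, by the GENCODE M21 annotation, Mcm2 (ENSMUSG00000002870) is on chromosome 6 (88883474 to 88898780, minus strand), Mcm3 (ENSMUSG00000041859) on chromosome 1 (20802968 to 20820312, minus), Mcm4 (ENSMUSG00000022673) on chromosome 16 (15623897 to 15637400, minus), Mcm5 (ENSMUSG00000005410) on chromosome 8 (75109569 to 75128439, plus) and Mcm6 (ENSMUSG00000026355) on chromosome 1 (128331590 to 128359664, minus). Mcm7 (ENSMUSG00000029730) is on chromosome 5 (138164583 to 138172422, minus), Cdc45 (ENSMUSG00000000028) on chromosome 16 (18780447 to 18811987, minus), Cdc6 (ENSMUSG00000017499) on chromosome 11 (98907801 to 98923940, plus), Pcna (ENSMUSG00000027342) on chromosome 2 (132249162 to 132253314, minus) and Rrm2 (ENSMUSG00000020649) on chromosome 12 (24708241 to 24714146, plus). All 10 are annotated as protein-coding.

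The promoters were searched for the E2F element because E2F factors are the known regulators of this gene group. RefSeq promoter windows of build GRCm38.p6, 250 bases before to 50 after each start, were at hand for 9 of the genes (10 windows; Mcm7 has 2), and not for Mcm4. The letters searched, on both strands, were TTTCCCGC, TTTGGCGC, TTTCGCGC and TTTGCCGC. They were found in 5 of the 10 windows, those of Cdc6, Mcm3, Mcm5, Mcm6 and Mcm7, against 28.6% of 91 windows of the other replication lists, 9.09% of 11 windows of G2 and mitosis genes and 2.26% of all 32851 promoter windows. The stretches around them, except for 1 form of Mcm7, are shown 5′ to 3′ on the gene's strand. Every listed E2F form within a stretch is in capitals. On Mcm5 and Mcm6 a pair of forms on opposite strands overlaps and runs together.
Cdc6 (chr11:98907998-98908035, plus): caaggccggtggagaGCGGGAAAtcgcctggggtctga
Mcm3 (chr1:20820267-20820293, minus): GCGGGAAAacttgggaagtTTTGGCGC
Mcm5 (chr8:75109341-75109382, plus): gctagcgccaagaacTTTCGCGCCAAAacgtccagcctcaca
Mcm6 (chr1:128359730-128359830, minus): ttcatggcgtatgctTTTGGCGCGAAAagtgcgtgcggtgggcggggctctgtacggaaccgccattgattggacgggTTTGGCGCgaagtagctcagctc
Mcm7 (chr5:138172026-138172063, minus): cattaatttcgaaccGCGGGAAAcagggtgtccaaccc
The Cdc6 form begins 138 bases before the start and the Mcm7 form shown 165 bases before it, while the pair on Mcm3 lies 20 and 39 bases after it. The Mcm6 stretch holds 3 forms. The Mcm7 form not shown, TTTCGCGC, begins 17 bases after the start in the same window. The windows of Cdc45, Mcm2, Pcna and Rrm2 held none of these letters. CCAAT, the element of the factor NF-Y, was in 9 of the 10 windows (all but that of Cdc6), against 51.6% of the other replication windows, 100% of the G2 and mitosis windows and 37.4% of all windows. The CHR element of G2 and mitosis genes, TTTGAA, was in 2 of the 10 (Cdc45 and Mcm2), against 15.4% of the other replication windows, 81.8% of the G2 and mitosis windows and 17.9% of all windows. These counts describe letters, and a match is not a measured binding site.

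The first comparison, TG over NG, asked how injured cells given hydrogen differed from injured cells that were not. All 10 genes fell in TG, by log2 fold changes between -2.99 (Cdc6) and -0.95 (Pcna), with a median of -2.06 where the median of all tested genes was 0. A call is an adjusted p under 0.05 from limma with Benjamini-Hochberg adjustment over all tested genes. By that rule 45.3% of all tested genes were called in this comparison, 22.2% of the tested genes being higher and 23.1% lower in TG, beside 10 of the 10 replication genes called lower.

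The 6 helicase subunits are present in equal numbers in the loaded ring. Mcm2, a subunit that also binds histones, had 214 and 218 normalised reads in TG, 1043 and 1032 in NG, and 326 and 403 in IG. The 2 TG libraries lay close together, and the 2 IG libraries lay furthest apart. Its log2 fold change TG over NG was -2.26 (SE 0.12, limma adjusted p = 2.21e-06), a mean in TG of 0.208 times that in NG. Mcm3, which in yeast contacts the origin complex with Cdc6 during loading, had 158 and 167 in TG, 743 and 744 in NG, and 282 and 278 in IG. The libraries of each group differed by far less than the groups did. It fell in TG by 2.19 on the log2 scale against NG (SE 0.10, limma adjusted p = 1.27e-06).

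Mcm5, which forms with Mcm2 the gate where the ring opens, had 164 and 178 normalised reads in TG, 836 and 948 in NG, and 304 and 336 in IG. It had the lowest TG to NG ratio of the helicase genes, 0.192, or a log2 fold change of -2.37 (SE 0.11, limma adjusted p = 1.59e-06). Mcm6, a subunit of the Mcm4, Mcm6 and Mcm7 core that has helicase activity in vitro, had 263 and 283 in TG, 1052 and 1046 in NG, and 425 and 386 in IG. No TG value reached the IG values, and the NG values stood well above both. It fell in TG against NG by 1.94 on the log2 scale (SE 0.10, limma adjusted p = 1.87e-06).

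Mcm4 and Mcm7, the other genes of that core, changed less. Mcm4 had 269 and 253 normalised reads in TG, 699 and 613 in NG, and 345 and 357 in IG. Its TG and IG libraries were closer to each other than to NG, as were those of every replication gene described here. The log2 fold change TG over NG was -1.32 (SE 0.11, limma adjusted p = 1.84e-05). Mcm7 had 319 and 330 in TG, 896 and 899 in NG, and 429 and 497 in IG. Its log2 fold change TG over NG was -1.47 (SE 0.10, limma adjusted p = 7.93e-06), and its 95% interval, -1.70 to -1.23, did not reach that of Mcm5, -2.64 to -2.11. The interval of Mcm4 was -1.57 to -1.08.

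Cdc6, the ATPase that recruits the ring to the origin, had 40.2 and 41.1 normalised reads in TG, 350 and 311 in NG, and 87.5 and 106 in IG. The ratios between groups were the largest of the 10 genes, and the TG values rest on 50 and 36 recovered reads. Its TG to NG ratio was 0.123, a log2 fold change of -2.99 (SE 0.17, 95% interval -3.38 to -2.60, limma adjusted p = 3.23e-06). Cdc45, which joins the ring with GINS at the start of S phase, had 61.1 and 52.5 in TG, 227 and 210 in NG, and 94.4 and 75.4 in IG. Its groups did not overlap. The log2 fold change TG over NG was -1.93 (SE 0.18, the largest of the 10; limma adjusted p = 4.84e-05).

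Rrm2, whose protein is made in S phase and degraded afterwards, had 173 and 180 normalised reads in TG, 871 and 924 in NG, and 317 and 331 in IG. The libraries of each group lay close together, and the log2 fold change TG over NG of -2.34 (SE 0.10) had the smallest limma adjusted p of the 10 genes, 9.52e-07. Pcna, which also serves DNA repair, had 919 and 954 in TG, 1843 and 1782 in NG, and 1191 and 1066 in IG. Its groups did not overlap, and it changed least of the 10. Its log2 fold change TG over NG was -0.95 (SE 0.08, 95% interval -1.14 to -0.76, limma adjusted p = 2.96e-05).

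**Figure D2:**
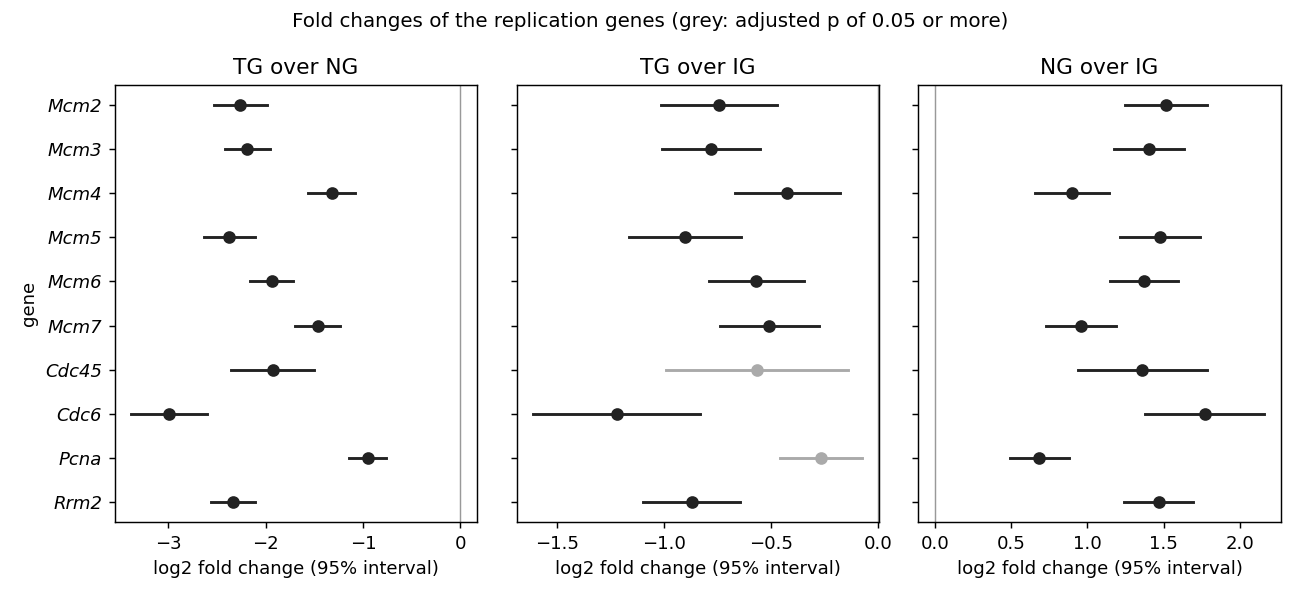
Log2 fold changes (horizontal axes) of the 10 genes with 95% intervals from limma, for TG over NG, TG over IG and NG over IG; grey marks an adjusted p of 0.05 or more. All intervals lie below 0 in the left panel (Cdc6 at -2.99, Pcna at -0.95) and above 0 in the right one (Cdc6 at 1.77, Pcna at 0.69), and Cdc45 and Pcna are grey in the middle panel.

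The second comparison, NG over IG, set injured cells against untreated cells. It shares the NG libraries with the first, so the values stand side by side and are no independent observation. All 10 genes rose in NG, where 40.1% of all tested genes were called, 19.7% higher and 20.4% lower in NG. The median log2 fold change of the 10 was 1.39, and that of all tested genes was 0. Cdc6 rose by 1.77 (95% interval 1.38 to 2.16), a mean of 3.42 times that in IG. Mcm2 rose by 1.52 (2.85 times), Mcm5 and Rrm2 by 1.47 each (2.78 and 2.77 times), Mcm3 by 1.41, Mcm6 by 1.37 and Cdc45 by 1.36. Mcm7 rose by 0.96, Mcm4 by 0.90 and Pcna by 0.69 (95% interval 0.49 to 0.88), so Cdc6 was again at the high end and Pcna at the low end. The limma adjusted p ran between 1.36e-05 for Rrm2 and 5.04e-04 for Cdc45.

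The third comparison, TG over IG, set injured cells with hydrogen against untreated cells. Of the 10 genes, 8 fell in TG, where 11.3% of all tested genes were called, 4.16% higher and 7.18% lower in TG. The median log2 fold change of the 10 was -0.66, and that of all tested genes was 0.0068. Cdc6 fell by 1.22 on the log2 scale (TG mean 0.421 times the IG mean, limma adjusted p = 0.00286), Mcm5 by 0.90, Rrm2 by 0.87, Mcm3 by 0.78, Mcm2 by 0.74, Mcm6 by 0.57, Mcm7 by 0.51 and Mcm4 by 0.42 (limma adjusted p = 0.0389). Cdc45 had a log2 fold change of -0.57 (95% interval -0.99 to -0.14, limma adjusted p = 0.0959) and Pcna one of -0.27 (-0.46 to -0.07, limma adjusted p = 0.0849), so neither was called. These calls rest on all 6 libraries. With limma, 0 of the 10 genes stayed called without IG library A or B or TG library A or B, while 9, 10, 9 and 8 of them had an unadjusted p under 0.05 in those 4 fits, and 3 were called without either NG library. Every log2 fold change stayed negative. The authors' deposited table calls 7 of the 10 at the same threshold, without Mcm4, whose adjusted p there is 0.073.

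The 6 helicase transcripts did not keep the same proportions. As a percent of the summed Mcm2 to Mcm7 normalised reads, Mcm7 made up 23.0 and 23.1 in TG, 17.0 and 17.0 in NG, and 20.3 and 22.0 in IG. Mcm4 made up 19.4 and 17.7 in TG, 13.3 and 11.6 in NG, and 16.3 and 15.8 in IG. Both were highest in TG and lowest in NG, with no overlap between groups. Mcm5 went the other way, with 11.8 and 12.5 in TG, 15.9 and 18 in NG, and 14.4 and 14.9 in IG. Mcm2 was at 15.4 and 15.3 in TG, 19.8 and 19.5 in NG, and 15.4 and 17.8 in IG, and Mcm3 at 11.4 and 11.7 in TG, 14.1 and 14.1 in NG, and 13.4 and 12.3 in IG. The Mcm2 share of IG library A lay at the TG values. The Mcm6 share, 19.0 and 19.8 in TG, 19.96 and 19.8 in NG, and 20.1 and 17.1 in IG, overlapped between groups. These shares were not tested.

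**Figure D3:**
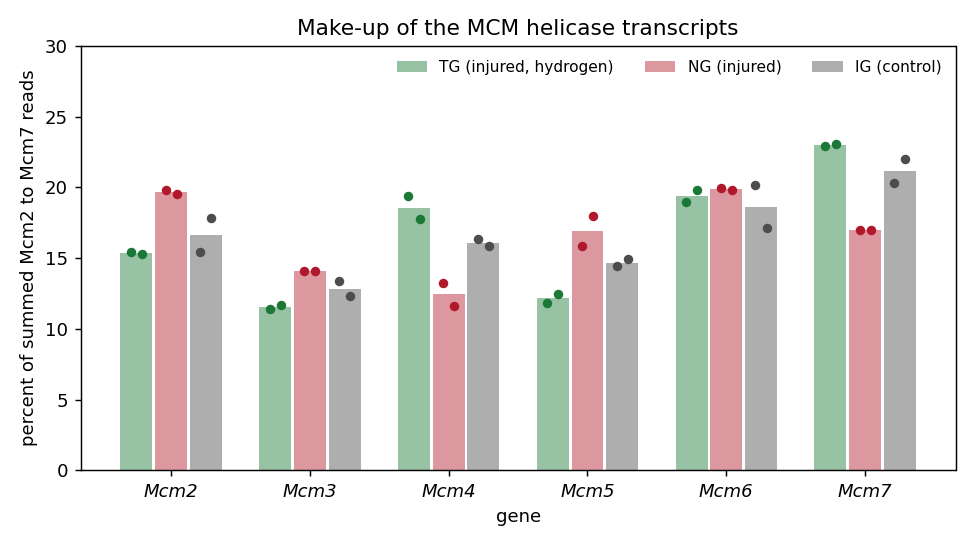
Each helicase gene's percent of the summed Mcm2 to Mcm7 normalised reads (vertical axis, from 0) in TG, NG and IG; bars are means of 2 libraries and points are the libraries. Mcm7 and Mcm4 take larger shares in TG (23.0 and 23.1; 19.4 and 17.7) than in NG (17.0 and 17.0; 13.3 and 11.6), and Mcm5 takes a smaller one.

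Levels of different genes were compared per kilobase of the longest coding transcript. On that scale Pcna was highest in every library (mean 617 normalised reads per kilobase in TG, 1194 in NG, 743 in IG) and Cdc6 lowest (8.81 in TG, 71.6 in NG, 20.9 in IG). Set against the mean of the 6 helicase genes per kilobase, Cdc6 stood at 0.128 and 0.127 in TG, 0.295 and 0.261 in NG, and 0.184 and 0.206 in IG. Pcna stood at 8.91 and 9.0 times that mean in TG, 4.73 and 4.56 times in NG, and 7.61 and 6.32 times in IG. Relative to the helicase genes, Cdc6 was highest and Pcna lowest in NG, without overlap between groups. Rrm2 was at 1.16 and 1.18 times in TG, 1.55 and 1.64 in NG, and 1.40 and 1.36 in IG, while the Cdc45 ratio, 0.420 and 0.351 in TG, 0.413 and 0.380 in NG, and 0.428 and 0.317 in IG, overlapped. With the length of all annotated exons of a gene in its place, an alternative chosen after seeing the data, Pcna was still highest in every library, Cdc45 was lowest in place of Cdc6 in NG library A, and the order among the helicase genes changed.

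Reads of 3 of the genes may be shared with other annotated genes. Exons of Mcm7 overlap those of Cops6 (64 bases) and Ap4m1 (321 bases, 7.25% of the Mcm7 exons) on the opposite strand, and those of Cdc45 overlap Ufd1 (209 bases, 5.96%). Whether strand was used in counting is not given in the sources used here, so reads there cannot be assigned. Pcna has a processed copy, Pcna-ps2 on chromosome 19, which the authors' counting gave 204 and 236 normalised reads in TG, 463 and 423 in NG, and 275 and 262 in IG. It fell in TG against NG by 1.01 on the log2 scale (limma adjusted p = 1.67e-04), and the division of reads between Pcna and this copy is uncertain.

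The wider replication machinery was described from lists of known genes, chosen with earlier results of these data in view. Of 9 genes of origin recognition and licensing control, 5 fell and 0 rose in TG over NG (median log2 fold change -0.45), and 4 rose in NG over IG (median 0.15). Orc1, the origin recognition subunit whose level follows the cell cycle, had 19.1 ± 5.33 normalised reads in TG, 74.8 ± 0.0844 in NG and 27.3 ± 7.41 in IG (SD, n = 2 each) and fell in TG against NG by 1.94. Cdt1, the loading partner of Cdc6, had 103 ± 3.52 in TG, 379 ± 24.7 in NG and 142 ± 11.1 in IG (SD, n = 2 each) and fell by 1.87. Orc4 and Orc5, core subunits of the recognition complex, were not called, with log2 fold changes TG over NG of 0.29 and 0.20. In TG over IG limma called 0 of the 9, and 2 had an unadjusted p under 0.05; the authors' deposited table also called 0.

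Of 14 genes of origin firing and the replisome, 13 fell in TG over NG (median -1.52), 13 rose in NG over IG (median 1.22) and 3 fell in TG over IG. Clspn, the adaptor of the replication checkpoint, and Mcm10, which helps the helicase start, fell in TG against NG by 2.59 and 2.53. Gins4, a GINS subunit, fell by 0.31, and Cdc7, the kinase that fires the ring, was not called (-0.12; 196 ± 17.4 in TG, 214 ± 35.3 in NG and 196 ± 36.5 in IG, SD, n = 2 each). Its regulatory subunit gene Dbf4, named here after its values were seen, fell by 1.56. Of 12 genes of the replicative polymerases and primase, 11 fell in TG over NG (median -1.22), 11 rose in NG over IG (median 0.89) and 2 fell in TG over IG. Pole and Pold1, the catalytic subunits of polymerases epsilon and delta, fell by 2.08 and 1.93, the small subunit Pole3 fell by 0.43, and Pold2 was not called (-0.36).

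Of 14 genes of the clamp loader, flap processing and single-strand binding, 11 fell in TG over NG (median -1.23), 10 rose in NG over IG (median 0.90) and 2 fell in TG over IG. Pclaf, a PCNA-binding factor, fell in TG against NG by 2.60, with 83.6 ± 4.43 normalised reads in TG, 513 ± 66.1 in NG and 144 ± 3.93 in IG (SD, n = 2 each). Dna2, a nuclease of flap processing, fell by 1.74 and Rpa1, the large single-strand binding subunit, by 0.27. Rnaseh2a, which removes RNA from DNA, was not called (-0.15). Of 10 genes of deoxynucleotide supply, 9 fell in TG over NG (median -0.98), 9 rose in NG over IG (median 0.85) and 2 fell in TG over IG. Tk1, the S phase thymidine kinase, fell by 2.46 and Shmt1, of the one-carbon cycle, by 1.65. Rrm2b, the damage-responsive counterpart of Rrm2, was not called in any comparison, with a log2 fold change TG over NG of 0.20 against -2.34 for Rrm2.

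Of 9 genes of chromatin assembly and maintenance methylation, 9 fell in TG over NG (median -1.59), 7 rose in NG over IG (median 1.19) and 2 fell in TG over IG. Asf1b and Uhrf1, a histone chaperone and the guide of Dnmt1 to replicated DNA, fell by 2.46 and 2.36, while Nasp and Asf1a, further histone chaperones, fell by 0.47 and 0.40. Of 10 genes of E2F factors and S phase cyclins, 9 fell and 1 rose in TG over NG (median -1.99), 9 rose in NG over IG (median 1.33) and 4 fell in TG over IG. Ccna2, the S phase cyclin, and E2f7, a repressor of the family, fell by 2.40 and 2.31, Ccne1, the G1/S cyclin, fell by 0.49, and E2f3 was the gene that rose, by 0.35. Of 11 genes of the retinoblastoma family, D cyclins and CDK inhibitors, 6 fell in TG over NG (median -0.58), 4 rose and 1 fell in NG over IG (median 0.11) and 5 fell in TG over IG. Cdkn2c, a CDK inhibitor, and Rbl1, a retinoblastoma relative, fell by 2.31 and 2.0 in TG against NG, and Rbl2 was not called (0.27). Cdkn1a, the p21 inhibitor of S phase entry, had 1541 ± 22.7 normalised reads in TG, 1339 ± 188 in NG and 2654 ± 233 in IG (SD, n = 2 each). It was not called in TG over NG (0.21) and fell against IG both in TG, by 0.78, and in NG, by 0.99.

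Leaving out 1 library changed several of these counts. Over the 9 lists of replication, cell cycle, and G2 and mitosis genes together (101 genes), limma called 31 in TG over IG with all 6 libraries, 0 without IG library A or B or TG library A or B, and 11 and 10 without NG library A and B, a count added after seeing the data. In the 4 fits with 0 calls, 35, 38, 44 and 38 of the 101 had an unadjusted p under 0.05. In NG over IG, origin firing genes called fell to 8 without either IG library, and polymerase genes to 6 without either IG library and 7 without NG library A. In TG over NG, without TG library B, polymerase genes called fell to 7 and origin recognition genes to 3.

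**Figure D4:**
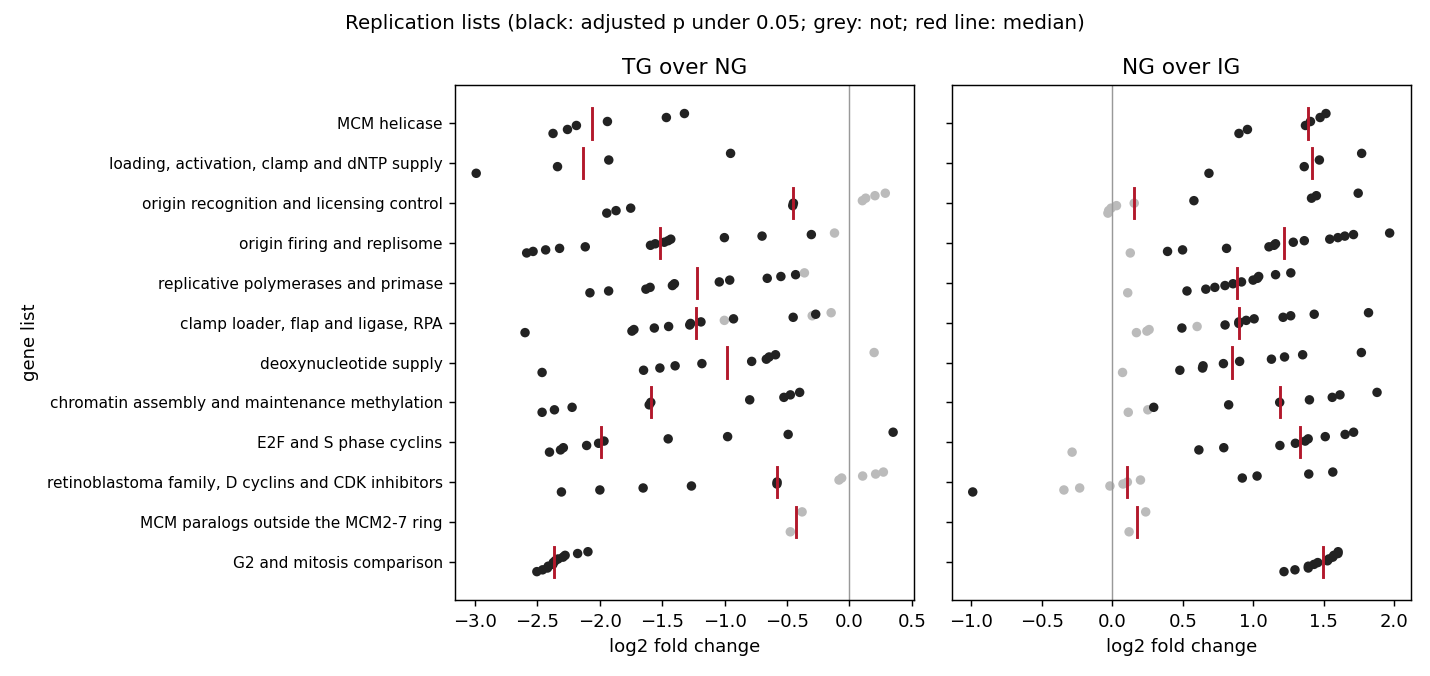
Log2 fold changes of each gene of the 10 replication genes (top 2 rows) and of the other lists, for TG over NG (left) and NG over IG (right); black points have a limma adjusted p under 0.05, grey points do not, and red lines are list medians. Most lists lie below 0 on the left and above 0 on the right, with the helicase row at a median of -2.06 and 1.39, and origin recognition (-0.45 and 0.15) and the CDK inhibitor row (-0.58 and 0.11) lie closer to 0.

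Mcm8 and Mcm9, relatives that act in repair and are not part of the licensing ring, were not called by limma in any of the 3 comparisons (0 of 2 each time; at an unadjusted p under 0.05, 1 of 2 in TG over NG and 0 of 2 in the others; 0 of 2 in the authors' deposited tables). Mcm8 had 59.0 ± 15.6 normalised reads in TG, 81.1 ± 9.02 in NG and 68.5 ± 1.69 in IG, and Mcm9 had 124 ± 9.62 in TG, 162 ± 12.7 in NG and 149 ± 2.63 in IG (SD, n = 2 each). Their log2 fold changes TG over NG were -0.47 and -0.38, beside a range of -2.37 to -1.32 for the 6 ring genes. Of 12 G2 and mitosis genes, all 12 fell in TG over NG (median -2.36) and rose in NG over IG (median 1.49), and 11 fell in TG over IG (median -0.86). Among them Aurkb, the mitotic kinase, and Bub1b, a spindle checkpoint protein, fell in TG against NG by 2.50 and 2.46, and Cdc20 and Kif11, an activator of the anaphase complex and a spindle motor, by 2.18 and 2.09. Replication-dependent histone genes supply new chromatin, and most of their S phase mRNA has no poly-A tail. Of 67 annotated genes 60 had a read, and only 19 had a mean of at least 10 normalised reads. In TG over NG 4 of the 60 rose, 8 fell and 48 were not called. Of all tested genes 22.2% were called higher and 23.1% lower there. Hist1h2bc, the histone gene with the highest mean of normalised reads, fell in TG against NG by 0.51, and Hist1h1c was not called (-0.10).

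The sums of several marker lists followed the same order as the 10 genes, and their part in the result was not tested. Not every single marker did. Fn1, of the fibroblast list, was highest in IG, with means of 3686 in TG, 5549 in NG and 8454 in IG. Ebf1, of the lymphoid list, was lowest in IG, with means of 761 in TG, 1283 in NG and 513 in IG. The 8 markers of marrow neutrophil precursors were all detected and summed to 1236 to 1442 normalised reads in TG, 16988 to 17312 in NG and 4441 to 4498 in IG; 8 of 8 fell in TG over NG, 8 of 8 rose in NG over IG and 8 of 8 fell in TG over IG. The 8 lymphoid precursor markers, all detected, summed to 1008 to 1039 in TG, 3408 to 3483 in NG and 1243 to 1341 in IG; 8 of 8 fell in TG over NG, 8 of 8 rose in NG over IG, and 6 fell and 1 rose in TG over IG. The 7 fibroblast and meningeal markers, all detected, summed to 20748 to 21234 in TG, 117722 to 118378 in NG and 46398 to 46513 in IG; 7 of 7 fell in TG over NG and in TG over IG, and 6 rose and 1 fell in NG over IG. The 4 muscle precursor markers, all detected over the 6 libraries, had low sums: 13.7 to 15.3 in TG, 183 to 216 in NG and 30.2 to 37.9 in IG. Of the 4, 2 fell in TG over NG, 2 rose in NG over IG and 1 fell in TG over IG. Beside these counts, 23.1% of all tested genes were called lower in TG over NG and 19.7% higher in NG over IG. In TG over IG 7.18% were called lower.

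In the next 3 lists the members were divided, as they were in the microglia and endothelial lists below. Their part in the result was not tested either. The 8 red cell and red cell precursor markers, all detected, summed to 370987 to 410891 normalised reads in TG, 302020 to 337280 in NG and 332847 to 373101 in IG, so that the sum was higher in TG than in NG without overlap. Of the 8, 2 rose and 4 fell in TG over NG, 4 rose in NG over IG and 3 fell in TG over IG. Slc4a1, Rhag and Klf1 were among those that fell in TG over NG, while Alas2 and Hbb-bs rose and Tfrc and Hba-a1 were not called. The 7 cartilage and bone markers, all detected, summed to 1313 to 1387 in TG, 1821 to 2150 in NG and 1592 to 1725 in IG; 1 rose and 3 fell in TG over NG, 2 rose and 1 fell in NG over IG, and 1 rose and 2 fell in TG over IG. Col2a1, Bglap and Ibsp fell in TG over NG, Sox9 rose, and Acan, Col9a1 and Sp7 were not called. The 7 markers of oligodendrocyte precursors, a type that divides in the young cord, were all detected and summed to 23573 to 25637 in TG, 10581 to 13730 in NG and 28661 to 33509 in IG. Of these 5 rose and 1 fell in TG over NG, 6 fell in NG over IG and 4 fell in TG over IG. Cspg4 was the one that fell in TG over NG, with means of 348 in TG, 595 in NG and 516 in IG, and Pdgfra was not called there.

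The sums of the other lists did not share the order of the 10 genes. Microglia and macrophage markers, 7 of 7 detected, summed to 5647 to 5701 in TG, 5574 to 6136 in NG and 6158 to 6334 in IG. Of these 1 rose (P2ry12) and 3 fell (Aif1, C1qa and C1qb) in TG over NG. The 6 endothelial markers, all detected, summed to 3662 to 3734 in TG, 5683 to 5803 in NG and 3701 to 3896 in IG, and the TG and IG sums overlapped. Of the 6, 1 rose (Flt1) and 3 fell (Pecam1, Cdh5 and Tek) in TG over NG, and 4 rose and 1 fell in NG over IG. The 7 astrocyte markers, all detected, summed to 105997 to 107503 in TG, 87092 to 88216 in NG and 125985 to 128687 in IG, and 5 of 7 rose in TG over NG. The 5 ependymal markers, all detected, summed to 821 to 892 in TG, 232 to 259 in NG and 507 to 545 in IG, and 5 of 5 rose in TG over NG. Skeletal muscle markers, 6 of 7 detected with Tnnc2 at 0 in all libraries, summed to 11299 to 11422 in TG, 75409 to 79940 in NG and 8161 to 8501 in IG; 5 fell in TG over NG, 5 rose in NG over IG and 3 rose in TG over IG. Mitochondrially encoded genes took 5.64% and 5.08% of reads in TG, 17.2% and 14.2% in NG and 5.39% and 4.66% in IG. Scaling by total reads without these genes moved the median of all genes to -0.10 in TG over NG, and all 10 replication genes were still called.

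**Figure D5:**
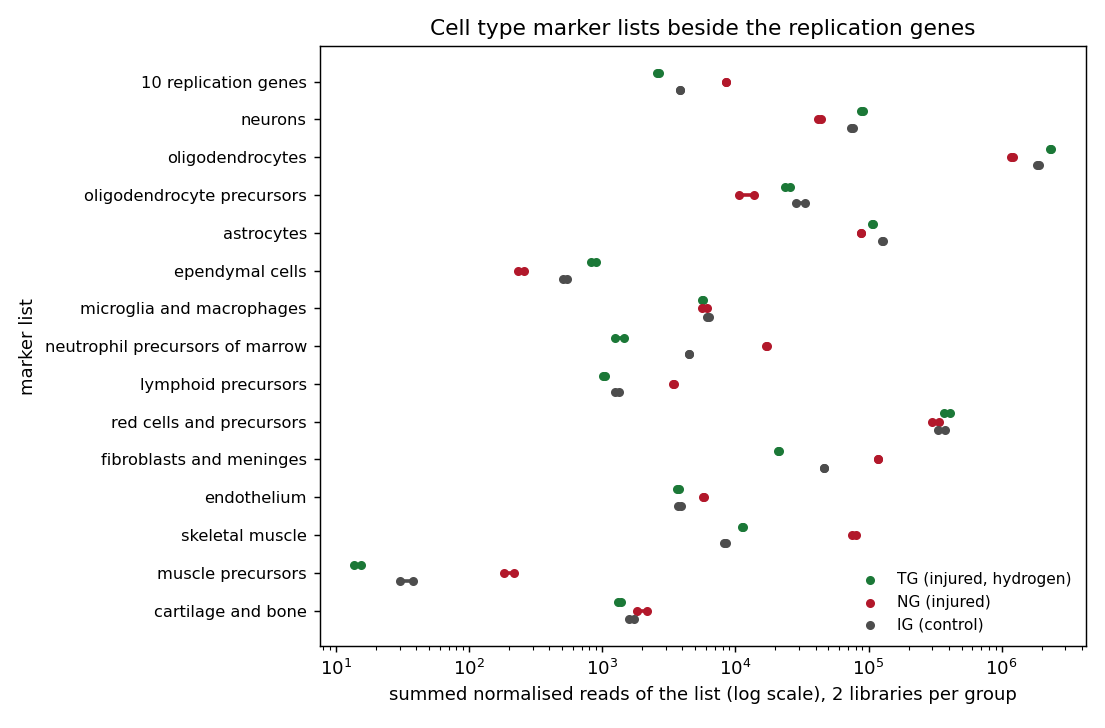
Summed normalised reads (log scale, horizontal axis) of the 10 replication genes and of each cell type marker list in the TG, NG and IG libraries; points are libraries, joined by a line within a group. The replication genes (2581 and 2656 in TG, 8559 and 8509 in NG) share the order of their sums with several lists. These are the neutrophil precursor, lymphoid precursor, fibroblast, muscle precursor, and cartilage and bone lists. The sums of neurons, oligodendrocytes and ependymal cells run the other way.

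The genes whose profile over the 6 libraries lay nearest the average profile of the 10 were found among 12288 genes with a mean of at least 100 normalised reads, by Euclidean distance of mean-centred log2 values. They were Flna (distance 0.083), an actin crosslinker, Cdc25b (0.14), a phosphatase of entry into mitosis, Serpinb1a (0.16), a leukocyte protease inhibitor, Ube2c (0.17), a ubiquitin carrier of mitotic exit, and Alox5ap (0.17), a leukocyte protein of leukotriene synthesis. Among the 10 themselves the distance ran between 0.18 for Mcm6 and 1.04 for Pcna, with Cdc6 at 1.03.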

How the data were processed

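RNA-seq of 6 libraries, 2 each of TG, NG and IG, was analysed from 3 tables, 1 for each pair of groups. The submitters' processing notes name Bowtie2 2.0.6, HTSeq 0.6.1 and mm10. The annotation behind the counts is not given in the sources used here, nor are the counting settings or the tool of the authors' test. Per the file headers, the authors deposited a read signal for each group, a log2 fold change and p-values for each gene; the values show the signal to be the mean of normalised reads of 2 libraries. The deposited table of the NG and IG pair gives IG over NG, which was turned round.

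Since each group's mean stands in 2 tables with different size factors, the reads of both libraries were solved for: 100% of 35275 genes in each group gave whole, non-negative reads within 0.001. Libraries A and B are not tied to the sample numbers of the labels. Reads were divided by median-of-ratios size factors over 6 libraries, and log2(normalised reads + 1) was fitted with limma 3.58.1 in R 4.3.3, with a trend of the prior variance, over 24511 genes with a read (3 residual and 5.23 prior degrees of freedom). Tests are two-sided, with Benjamini-Hochberg adjustment and a threshold of 0.05. Fold changes on this scale understate changes of low genes. The recovery of reads and the limma step were also run on simulated data, whose outcome is not given here. The simulation for limma changed far fewer genes than were called in TG over NG and in NG over IG.

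The 10 genes and the lists were chosen with earlier results of these data known. Every one of the 10 is named; of each other list, the 2 genes with the highest and the 2 with the lowest log2 fold change TG over NG among those with a mean of at least 10 normalised reads; of histones, the 2 most abundant. One gene that this rule names is not reported here. Symbols come from GENCODE M21 (34490 of 35275 IDs matched) and promoter sequences from RefSeq. Read depth limits precision most for Cdc6 and Cdc45. Alternatives were the scaling, pseudocounts of 0.5 and 5, a filter at a mean of 10, no trend, a GC and length correction, the 4 libraries of each pair, each library left out in turn, and the authors' own test.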

Additional observations from a re-analysis of the deposited data

How the results depend on the processing

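In TG over NG and in NG over IG all 10 replication genes stayed called, with the same direction, under each of the 16 alternatives, and no log2 fold change of the 10 changed sign in any comparison. TG over IG was less stable. There 8 of the 10 were called, against 4 with no trend of the prior variance and 0 to 3 with 1 library left out. Over all genes, TG over IG had 2779 called, against 1318 with no trend and 5213 with the GC and length correction, and 0 to 1012 with 1 library left out (0 without TG library B, 2 without TG library A, 76 and 81 without IG library A and B, 1012 and 944 without NG library A and B). NG over IG had 9818 genes called, and 6252 to 7566 with 1 library left out. A fit without a library has fewer samples, and the lone library of its group is assumed to vary like the others. The cause of the changed counts was not tested for any setting. Of the 160 alternative values of single genes in TG over IG, 47 were no longer past the threshold and 2 newly were, both of Pcna when scaled by total reads (limma adjusted p = 0.0356 and 0.0446). No paired analysis was possible because the deposited columns carry no sample numbers. With the GC and length correction, 8 genes of the CDK inhibitor list were called in NG over IG. Of Mcm8 and Mcm9, 1 was called with that correction in NG over IG and in TG over NG, and 1 in TG over NG with a mean of at least 10 normalised reads or without mitochondrially encoded reads in the scaling. Read depth limits precision most for Cdc45 and Cdc6, the genes with the fewest reads.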

Other observations

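Of the 10 genes, 3 have a neighbour whose annotated start lies within 1000 bases on the opposite strand, a set looked up after the values were seen. Whether these pairs share a promoter was not tested. Prkdc, the catalytic subunit of a DNA repair kinase, starts 466 bases from Mcm4 and had 368 and 288 normalised reads in TG, 243 and 230 in NG, and 341 and 284 in IG. It rose in TG over NG by 0.46 on the log2 scale (limma adjusted p = 0.036), where Mcm4 fell by 1.32. Ufd1, a factor of protein degradation, starts 208 bases from Cdc45 and had 1427 and 1385 in TG, 1077 and 981 in NG, and 1215 and 1103 in IG. It rose in TG over NG by 0.45 (limma adjusted p = 0.00283), where Cdc45 fell by 1.93. Ap4m1, an adaptor of vesicle sorting, starts 420 bases from Mcm7 and had 82.1 and 105 in TG, 135 and 171 in NG, and 84.4 and 118 in IG. It fell by 0.71 (limma adjusted p = 0.0322), and part of its exons overlap those of Mcm7.

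The summed replication-dependent histone genes stood at 3513 and 3740 normalised reads in TG, 3938 and 4202 in NG, and 2826 and 2950 in IG. In NG over IG 13 of the 60 rose and 2 fell, where 19.7% of all tested genes were called higher and 20.4% lower. In TG over IG 2 rose and 0 fell, where 4.16% of all tested genes were called higher and 7.18% lower. Hist1h1c was among the 2, with a log2 fold change of 0.64. In the authors' deposited tables, histone genes called numbered 7 in NG over IG, 6 in TG over NG and 1 in TG over IG. With the GC and length correction, 5 were called in TG over IG. The TG over IG calls also changed with 1 library left out. Of the 60, 19 had a mean of at least 10 normalised reads. Without 1 library, the histone genes called numbered 5 and 8 in NG over IG without IG library A and B, 7 and 5 without NG library A and B, and 9 without TG library B; in TG over NG they numbered 7 without NG library B and 6 without TG library A.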
